A study of Mus musculus with 6 samples.

Results

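Endothelial cells hold a vessel closed through proteins at their contacts, and they admit leukocytes through a second set of proteins on their surface. The 10 genes described here belong to both sets: Cdh5 (VE-cadherin), Pecam1 (CD31), Esam and Jam2 at the junctions, Icam2, Icam1 and Vcam1 as immunoglobulin-family ligands of leukocyte integrins, Sele (E-selectin) and Selp (P-selectin), which slow rolling leukocytes, and Vwf, the multimeric protein stored with P-selectin in Weibel-Palade bodies. They were taken by gene symbol, and all 10 were matched 1 to 1 among the 56884 genes of the count matrices. Their UMIs (unique molecular identifiers, each one captured transcript) were summed per library over endothelial barcodes, meaning cell barcodes with at least 1500 UMIs (700 in both Hgf libraries) and a UMI of at least 2 of Egfl7, Tie1 and Cldn5, and over barcodes of other lineages.

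As background, ICAM1, VCAM1 and E-selectin are known as inducible proteins of inflamed endothelium, controlled through NF-kB, whereas VE-cadherin, CD31 and ICAM2 are made by resting vessels. Von Willebrand factor and P-selectin are characteristic of larger vessels, veins above all, and are sparse in the capillaries of the lung. ICAM1 is also known on the alveolar type 1 epithelium, and VCAM1 on fibroblasts and astrocytes.

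The data were 6 single-cell libraries from mice, 1 per condition, each made from 2 pooled animals. In lung at postnatal day 21, Bdnf lox/lox controls were set beside Bdnf iPCKO and Hgf lox/lox controls beside Hgf iPCKO, and in cortex at postnatal day 12, Nodal lox/lox controls beside Nodal iPCKO. The iPCKO animals carried the Pdgfrb(BAC)-CreERT2 transgene together with the same lox alleles. The controls are described as lox/lox, and the paper does not state whether they carried CreERT2. Pups were given 50 µg tamoxifen on each of days 1 to 3 to induce Cre, and the paper does not say whether this included the controls. The Pdgfrb promoter is active in pericytes and also in vascular smooth muscle, so the deletion is not limited to pericytes. Lung cells were depleted of CD45 and Ter119 positive cells with beads, a step aimed at leukocytes and red cells, and cortex was freed of meninges and myelin. Between 29 and 81 immune-like barcodes per lung library remained. With 1 library per condition no difference had a replicate error, so no p-value is given. All intervals are 95% intervals of the counting error alone (exact Poisson for levels, conditional exact for ratios, Clopper-Pearson for shares), and UMIs of 1 cell or 1 mouse are not independent.

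The libraries held 69403166 to 186701379 UMIs in lung and 33889545 to 54791946 in cortex, and the UMI minimum kept 3237 to 24311 barcodes each. Endothelial barcodes numbered 5607 and 7745 in Bdnf control and iPCKO, 5824 and 7549 in Hgf control and iPCKO, and 863 and 1538 in Nodal control and iPCKO, with medians of 2392 to 5175 UMIs in lung and 10099 to 10350 in cortex. In every library all 5 of Clec14a, Ptprb, Calcrl, Cd93 and Tek, endothelial genes that the selection did not use, were at least 3.16-fold higher in endothelial than in other barcodes. In 12.9 to 37.0% of endothelial barcodes the selection rested on exactly 2 of its 3 genes. Many lung endothelial barcodes also carried another lineage: 45.2% and 54.7% in Bdnf control and iPCKO and 30.0% and 32.9% in Hgf control and iPCKO had UMIs of at least 3 of the 5 markers of some other lineage, mostly alveolar or club epithelium, against 14.6% and 10.6% in cortex. Results were therefore also computed without these barcodes, and those values are called unmixed below. Between any 2 libraries, 2 to 65 endothelial barcode sequences were shared. The targeted genes were read in pericyte-like and smooth muscle-like barcodes: Nodal gave 175 UMIs in control and 0 in iPCKO, which allows up to 1.08 CPM (the level unit explained next), Hgf gave 64.8 and 32.2 CPM from 19 and 10 UMIs, and Bdnf 67.0 and 40.9 CPM. Hgf was also lower in endothelial barcodes of its iPCKO, at 17.3 and 3.78 CPM. Hgf and Bdnf UMIs were thus still counted in pericyte-like and smooth muscle-like barcodes of their iPCKO libraries. The intervals of control and iPCKO overlapped for Hgf and not for Bdnf. The mix of pericyte-like and smooth muscle-like barcodes differed between control and iPCKO. Whether the UMIs in iPCKO came from transcript left in these cells, from free RNA or from mixed barcodes was not tested. The position of the reads relative to the deleted exons was not used here.

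Levels are given as CPM, the UMIs of a gene per 1000000 UMIs of the same barcodes, on a linear scale. The libraries read transcripts by tags and not along their length, so CPM was not divided by gene length.

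Among the junction genes, Pecam1 had the highest level of the 10 genes in all 4 lung libraries. It measured 1739 CPM in Bdnf control, 1540 in Bdnf iPCKO, 1580 in Hgf control, 1563 in Hgf iPCKO, 836 in Nodal control and 869 in Nodal iPCKO. Cdh5, which encodes the adhesive cadherin of endothelial adherens junctions, measured 1329, 1038, 1439, 859, 395 and 383 CPM in the same order of libraries. Esam, a tight-junction-associated immunoglobulin protein, had the opposite order of organs: 565, 498, 766 and 805 CPM in lung against 1007 and 1008 CPM in cortex, where it was the highest of the 10 genes. Jam2, another immunoglobulin protein of the contact zone, measured 160, 135, 99.7 and 65.5 CPM in lung and 183 and 170 CPM in cortex.

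Of the integrin ligands, Icam1 measured 403, 507, 391 and 411 CPM in the lung libraries, 311 CPM in Nodal control and 604 CPM in Nodal iPCKO. Icam2 measured 213, 187, 258 and 120 CPM in lung and 139 and 142 CPM in cortex. Vcam1 was lower, at 62.0 CPM (59.6 to 64.4) in Bdnf control, 41.5 (39.7 to 43.4) in Bdnf iPCKO, 35.0 (32.4 to 37.6) in Hgf control, 13 (11.6 to 14.5) in Hgf iPCKO, 41.4 (37.6 to 45.5) in Nodal control and 60.8 (57.3 to 64.5) in Nodal iPCKO. Over all endothelial barcodes Hgf iPCKO thus had the lowest level of both Icam2 and Vcam1, and Nodal iPCKO the highest level of Icam1.

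Vwf measured 519, 383, 497 and 484 CPM in lung and 237 and 308 CPM in cortex. Selp measured 29.0, 45.0, 24.4 and 26.6 CPM in lung, and 7.88 CPM (6.26 to 9.78) and 4.73 CPM (3.78 to 5.83) in cortex. Sele was the rarest of the 10 genes in every library except Nodal iPCKO, where it had the same level as Selp within their intervals. It gave 123, 240, 34 and 30 UMIs in the lung libraries and 13 and 87 UMIs in cortex, or 3.0, 4.97, 1.65, 1.21, 1.25 and 4.78 CPM. Apart from that pair, the intervals of neighbours in the order of levels overlapped only in Bdnf iPCKO, for Icam1 with Esam and for Selp with Vcam1.

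**Figure D1:**
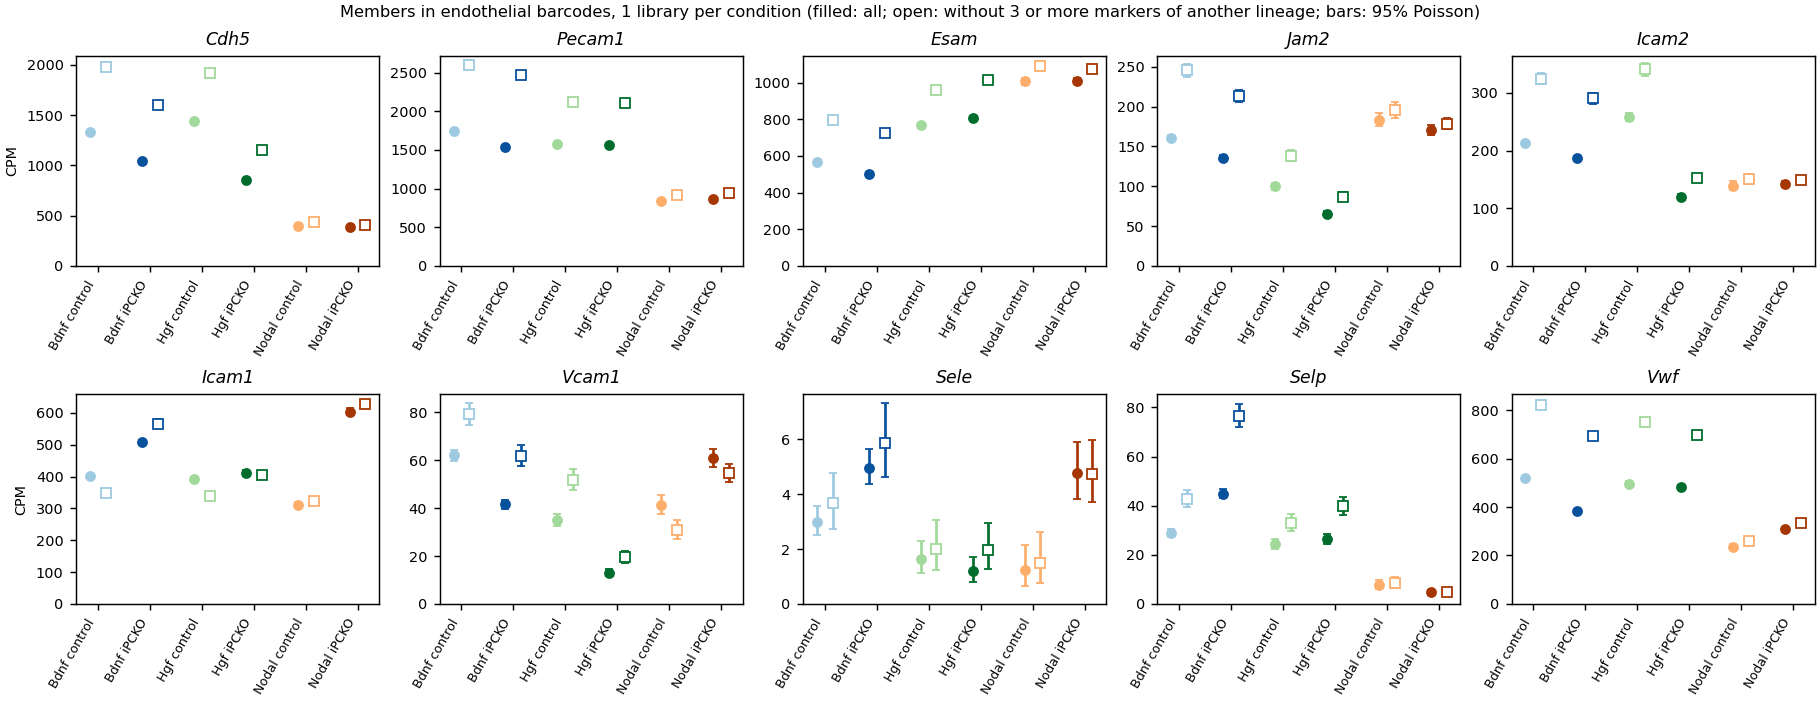
Level of each of the 10 genes (CPM, linear axis from 0) in endothelial barcodes of the 6 libraries, as filled points for all endothelial barcodes and open squares for unmixed barcodes, with 95% Poisson bars. Esam stands higher in cortex (1007 and 1008 CPM) than in lung, Cdh5, Pecam1 and Selp stand lower there, and Icam1 is highest in Nodal iPCKO (604 CPM).

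How far each gene was restricted to endothelium was read from barcodes of other lineages, named from 5 markers each. Icam2, Cdh5, Pecam1 and Vwf were the most restricted: in the 3 controls 92.5 to 98.8% of their UMIs in kept barcodes lay in endothelial barcodes. After every barcode was thinned to 700 UMIs, Cdh5 had a UMI in 63.3% of Bdnf control endothelial barcodes (97.2% unthinned, median 5175 UMIs) against 0.968% of AT2-like barcodes, epithelial cells that should lack it (median 8322 UMIs). In Nodal control the shares were 22.7% of endothelial barcodes (88.5% unthinned, median 10099 UMIs) and 0.263% of astrocyte-like barcodes (median 10039 UMIs). Cdh5 had 1 further place: cortical fibroblast-like barcodes measured 181 CPM in control and 172 CPM in iPCKO, with a UMI in 14.5% of the 83 control barcodes after thinning, while their Pecam1 was 6.11 and 3.74 CPM. Esam was shared with mural cells, at 476 CPM in pericyte-like and 520 CPM in smooth muscle-like barcodes of the control cortex, and with AT1-like barcodes at 248 and 441 CPM in the Bdnf and Hgf control lungs.

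Icam1 and Vcam1 in both organs, and Jam2 in cortex, were higher in another lineage than in endothelium. Icam1 was highest in AT1-like barcodes, the thin gas-exchange epithelium, at 1471 CPM in Bdnf control, 1090 in Bdnf iPCKO, 1976 in Hgf control and 1474 in Hgf iPCKO, and in cortex in microglia-like barcodes at 546 and 682 CPM. In the control lungs only 29.1% and 31.6% of Icam1 UMIs lay in endothelial barcodes. Vcam1 was highest in lung fibroblast-like barcodes (164, 123, 166 and 69.8 CPM) and in cortical astrocyte-like barcodes (598 and 588 CPM), and 8.17% of its UMIs in control cortex were endothelial. Jam2 in astrocyte-like barcodes was 273 and 271 CPM, above the 183 and 170 CPM of cortical endothelium, whereas in lung its highest other lineage was the fibroblast-like one at 24.2 to 64.5 CPM.

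Selp was mainly endothelial in control lungs, while in cortex its total over endothelium was near the level of other lineages. In control lungs its highest other lineage, the immune-like one, had 10.9 and 5.50 CPM from 50 and 81 barcodes. In iPCKO lungs the highest other lineage was closer to endothelium. It was the smooth muscle-like one in Bdnf iPCKO, at 19.9 CPM against 45.0 CPM in endothelium. In Hgf iPCKO it was the immune-like one, at 17.3 CPM against 26.6 CPM, with an interval of the log2 ratio that included 0 (0.60, -0.13 to 1.45). In control cortex the endothelial 7.88 CPM stood beside 6.84 CPM in microglia-like, 5.23 in fibroblast-like and 4.83 in astrocyte-like barcodes, so its total over cortical endothelium was not read as endothelial expression.

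**Figure D2:**
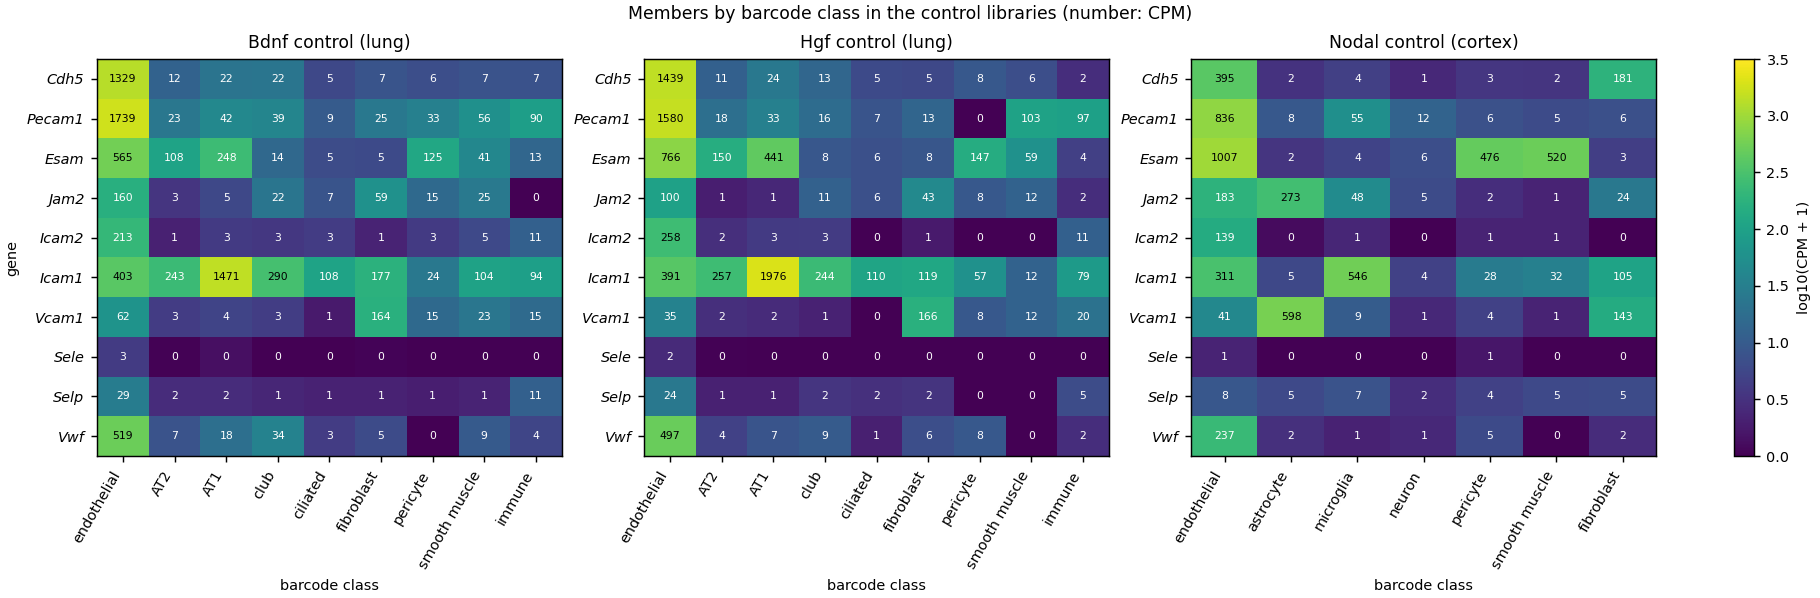
Level of the 10 genes (rows) by barcode class (columns) in the 3 control libraries, with CPM printed in each square and colour giving log10(CPM + 1). Icam1 peaks in the AT1 column (1471 and 1976 CPM) and Vcam1 in the fibroblast columns of lung and the astrocyte column of cortex (598 CPM), while Icam2 stays close to 0 outside endothelium.

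Within endothelium, barcodes were sorted by markers that include none of the 10 genes. In lung, 3170 to 4222 barcodes per library were general capillary-like (Gpihbp1, Aplnr, Kit, Plvap, Sema3c), 662 to 1617 aerocyte-like (Car4, Ednrb, Fibin, Apln, Tbx2, the wide capillary cells of gas exchange), 220 to 357 arterial-like, 468 to 844 venous-like and 132 to 174 lymphatic-like. In 2.34 to 15.7% of endothelial barcodes per library the sorting rested on exactly 2 markers. The leading genes of the Hgf control venous-like class included the granulocyte precursor genes Elane, Prtn3 and Mpo, and those of the Hgf iPCKO aerocyte-like class the immunoglobulin genes Igha, Igkc and Jchain. In cortex, 58 and 86 barcodes were arterial-like and 715 and 1281 were chosen by at least 2 of Mfsd2a, Tfrc, Car4, Slc16a1 and Rgcc. A set of 25 control and 56 iPCKO barcodes was chosen by at least 2 markers of a list that included Slc38a5, Nr2f2, Ackr1 and Lcn2. The genes leading it in control were neuronal (Nptx1, Nxph3, Penk), so it was given no cell type name and is called the Nr2f2 set. Haemoglobin and myelin genes led the larger set in control, with none of its own markers among the 10 leading genes of either library, so it was not named either and is called the Mfsd2a set.

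Vwf separated large vessels from capillaries in lung. In Bdnf control it measured 2033 CPM in venous-like and 1726 CPM in arterial-like barcodes against 65.3 CPM in general capillary-like and 33.8 CPM in aerocyte-like barcodes, and in Hgf control 2343 and 2547 CPM against 108 and 30.1 CPM. In control cortex the classes were close to each other, at 266 CPM in arterial-like, 228 CPM in the Mfsd2a set and 328 CPM in the Nr2f2 set. Selp and Sele followed the large vessels as well. Selp measured 132 CPM in venous-like, 54.2 in arterial-like and 4.14 in general capillary-like barcodes of Bdnf control, and 80.9, 174 and 7.70 CPM in Hgf control, so that the order of veins and arteries differed between the 2 control lungs. In control cortex the Nr2f2 set held 35 Selp UMIs (68.4 CPM) and the far larger Mfsd2a set 34 (3.95 CPM). Those of the Nr2f2 set came from 7 barcodes, and 1 endothelial barcode of this library held 15 Selp UMIs. The Nr2f2 set thus had 42.7% of the endothelial Selp UMIs in 2.90% of the endothelial barcodes. Its level was above the 6.84 CPM of the highest other lineage, and in iPCKO it was 51.9 CPM. Of the 123 Sele UMIs in Bdnf control, 103 lay in venous-like and 16 in arterial-like barcodes. Vcam1 was also highest in large vessels, at 248 CPM in venous-like, 116 in arterial-like, 16.1 in general capillary-like and 10.6 in aerocyte-like barcodes of Bdnf control, at 127, 285, 6.43 and 4.24 CPM in Hgf control, where arteries stood above veins, and at 240, 17.4 and 133 CPM in arterial-like, Mfsd2a-set and Nr2f2-set barcodes of control cortex.

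Junction genes and Icam2 had another distribution. Cdh5 was highest in aerocyte-like barcodes, at 2310 and 2127 CPM in Bdnf and Hgf control, then in general capillary-like barcodes at 1500 and 1512 CPM, and lowest in venous-like (621 and 676 CPM) and lymphatic-like ones (566 and 588 CPM). Icam2 was also highest in aerocyte-like barcodes (466 and 503 CPM), followed by arterial-like ones (353 and 316 CPM). Jam2 was the reverse among capillaries and large vessels, with 395 and 282 CPM in venous-like, 327 and 304 CPM in arterial-like and 32.6 and 29.0 CPM in aerocyte-like barcodes. Esam was nearly missing from lymphatic-like barcodes (36.3 and 46.0 CPM), where Pecam1 was still at 877 and 691 CPM. Icam1 was highest in venous-like barcodes of lung (752 and 663 CPM) and in the Nr2f2 set of cortex (1202 CPM), and lowest in lymphatic-like (139 and 124 CPM) and cortical arterial-like barcodes (127 CPM).

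**Figure D3:**
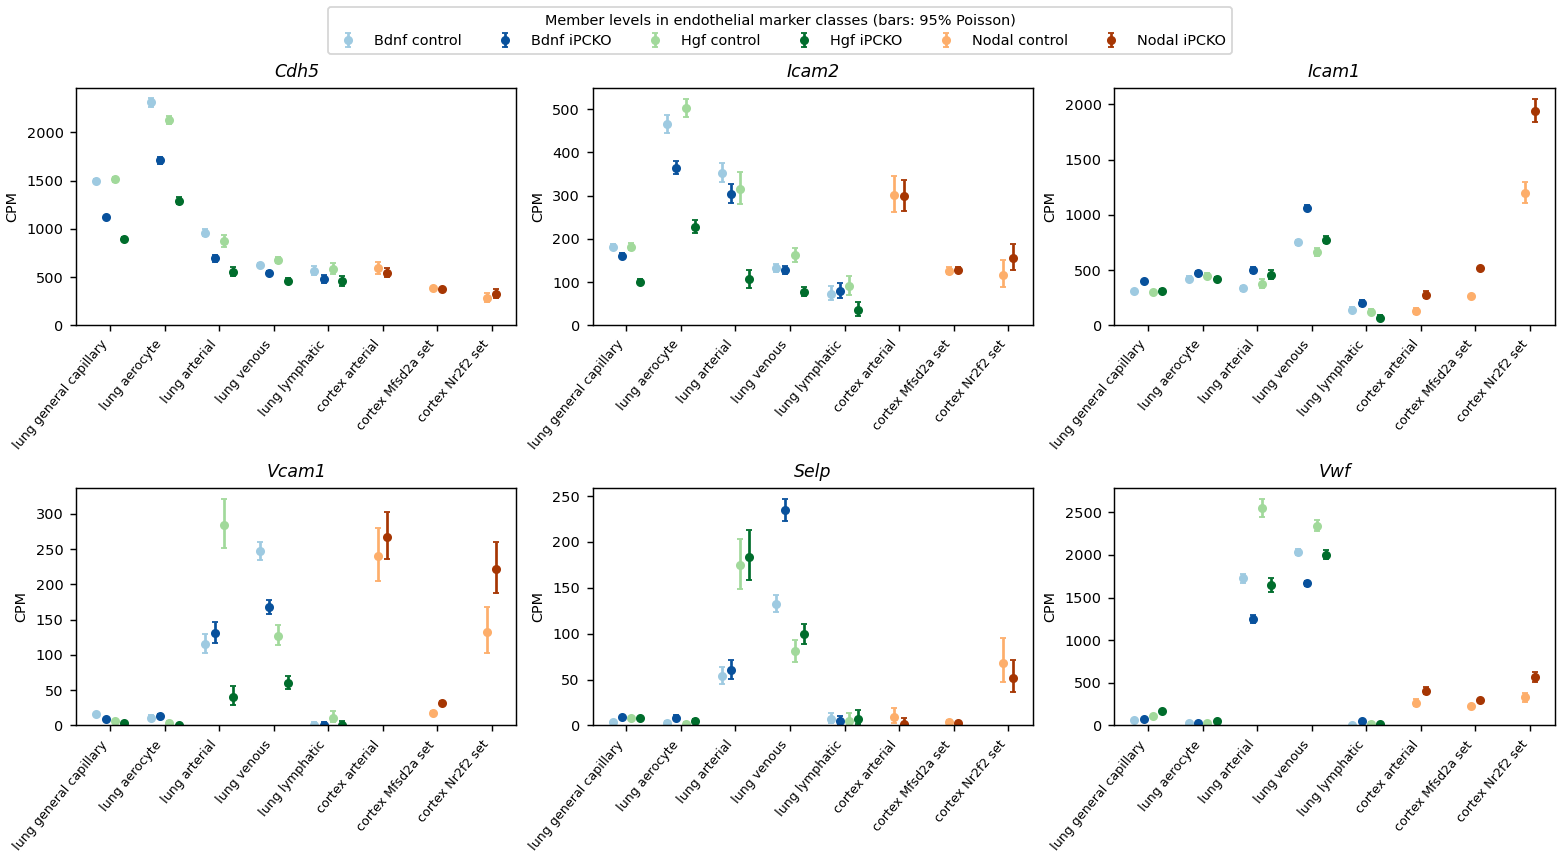
Level (CPM, linear axes from 0) of 6 of the 10 genes in endothelial classes sorted by markers, with 1 point per library and 95% Poisson bars. Among the lung classes, Cdh5 and Icam2 are highest in aerocyte-like barcodes and Vcam1, Selp and Vwf in venous-like or arterial-like ones, and Icam1 is higher in Nodal iPCKO than in Nodal control in each cortical class.

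Sele, Selp and Vcam1 were often found in the same barcodes, in lung and in cortex. In Bdnf control, Sele UMIs came from 29 barcodes, of which 69.0% also had a Selp UMI, against 6.24% of the endothelial barcodes without Sele, and 75.9% had a Vcam1 UMI, against 10.0%. The barcodes with Sele were deeper, with a median of 11244 UMIs against 5152, and 1 of them held 22 Sele UMIs. With every barcode thinned to 700 UMIs, which removes the depth difference, 65.9% (54.6 to 76.0) of the 82 Bdnf control barcodes with Selp also had Vwf, against 17.0% (16.0 to 18.0) of the others, and 17.1% (9.66 to 27.0) had Vcam1 against 1.79% (1.46 to 2.18). In cortex the shares were not thinned, and barcodes with Sele or Selp were deeper. Of the 6 Nodal control barcodes with Sele, 66.7% also had Selp, against 5.02% of those without, and 66.7% had Vcam1, against 12.6%. Of the 46 Nodal iPCKO barcodes with Sele, 26.1% had Selp, against 2.28%, and 80.4% had Vcam1, against 18.0%. Vwf was in 66.0% of the 47 Nodal control barcodes with Selp, against 71.0% of those without. In Nodal iPCKO it was in 91.3% of the 46 with Selp, against 79.6%. Cdh5 went the other way, since 14.5% (13.3 to 15.7) of Bdnf control barcodes with Cdh5 had Vwf, against 23.3% (21.5 to 25.2) of those without.

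Over 49 groups of barcodes (each endothelial or other lineage group of at least 50 barcodes in each library) the genes of most similar level, by Pearson correlation of log2(CPM + 1) among 20058 genes, were named as a description. The groups share libraries and depth, so no p is given. For Icam2 these were Gimap4, Gimap8 and Myct1 (0.95, 0.94 and 0.93), for Vwf Mmrn2, Rasip1 and Ptprb (0.92, 0.92 and 0.91), for Pecam1 Icam2, Clec14a and Edn1 (0.90, 0.90 and 0.89), and for Cdh5 Clec1a, Ramp2 and Robo4 (0.90, 0.90 and 0.88). Icam1 was close to Piezo1 and Rnase4 (0.87 and 0.81), Sele to Dipk2b, Tmem252 and She (0.85, 0.83 and 0.80) and Esam to Utrn, Nherf2 and Flt1 (0.85, 0.82 and 0.82). Vcam1 was closest to Tmem198b, Apoe and Steap3 (0.80, 0.79 and 0.79), Jam2 to Fam181b, Plekhg1 and Tmem44 (0.76, 0.75 and 0.74) and Selp to Pkn3, Glb1l3 and H2-T24 (0.74, 0.73 and 0.73).

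In the Nodal pair, Icam1 and Sele were higher in iPCKO, and the junction genes were nearly equal. A gene was called when it differed at least 1.5-fold between the libraries. Icam1 and Sele were called higher and Selp lower, 2 and 1 of 10, where 2.83% of 14525 genes (those holding 50 UMIs or more over the pair) were called higher and 7.25% lower. Icam1 measured 311 CPM in control and 604 CPM in iPCKO, a log2 ratio of 0.96 (0.90 to 1.02) or 1.94-fold, and 0.96 in unmixed barcodes. After thinning to 700 UMIs, 13.4% of control and 24.5% of iPCKO endothelial barcodes had an Icam1 UMI (54.7% and 68.7% unthinned). Its log2 ratio was 1.13 (0.77 to 1.5) in arterial-like, 0.99 (0.92 to 1.06) in Mfsd2a-set and 0.69 (0.55 to 0.83) in Nr2f2-set barcodes. Ackr1, a marker used to choose the Nr2f2 set, was itself at 14.7 and 33.8 CPM in control and iPCKO, so the set may not hold the same cells in both libraries and its ratios are given as values only.

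Outside endothelium Icam1 measured 27.8 and 58.5 CPM in pericyte-like barcodes of control and iPCKO, a log2 ratio of 1.08 (0.58 to 1.60), and 546 and 682 CPM in microglia-like barcodes (0.32, 0.26 to 0.38). In astrocyte-like barcodes it was 4.73 and 7.52 CPM. Barcodes with under 100 UMIs held 599 and 907 CPM of Icam1, and the part of free RNA in the endothelial difference was not tested.

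Sele gave 13 UMIs in 6 control barcodes, 6 of the UMIs in 1 barcode, and 87 UMIs in 46 iPCKO barcodes, or 1.25 CPM (0.665 to 2.13) and 4.78 CPM (3.82 to 5.89). The log2 ratio was 1.94 (1.09 to 2.90), or 3.82-fold, and 2.13 (0.89 to 3.64) in Mfsd2a-set barcodes alone, with 6 and 46 UMIs. Barcodes with under 100 UMIs held 2.15 and 10.8 CPM. Vcam1 measured 41.4 and 60.8 CPM, a log2 ratio of 0.55 (0.39 to 0.72) that was just short of 1.5-fold, and 0.83 in unmixed barcodes, where it was 30.8 and 54.7 CPM. It also passed the limit with all 3 of Egfl7, Tie1 and Cldn5 required, with 3 of 5 other endothelial genes required and with median-of-ratios scaling. It was 0.86 (0.59 to 1.14) in Mfsd2a-set and 0.16 (-0.13 to 0.45) in arterial-like barcodes. Astrocyte-like barcodes, the main source of Vcam1, had 598 and 588 CPM, and the summed level of 5 astrocyte markers in endothelial barcodes was 577 CPM in control and 429 CPM in iPCKO, and its part in the Vcam1 difference was not tested. Vwf was at 237 and 308 CPM (0.38, 0.31 to 0.44).

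Selp was the called gene in the other direction, at 7.88 and 4.73 CPM (-0.74 on the log2 scale, -1.19 to -0.28). The same direction was seen in lineages without expected expression, since Selp was 4.83 and 2.47 CPM in astrocyte-like and 6.84 and 3.59 CPM in microglia-like barcodes, and 22.4 and 6.33 CPM in barcodes with under 100 UMIs. In the Nr2f2 set the ratio was -0.40 with an interval that included 0 (-1.11 to 0.32). With every barcode thinned to 700 UMIs, Selp was no longer called, and only 8 genes were measured. Its ratio was then 0.75, with a wide interval that included 0 (-1.73 to 4.09). The share of barcodes with a Selp UMI was taken from a separate random draw of 700 UMIs per barcode. In that draw the share was lower in iPCKO, at 0.695% in control and 0.26% in iPCKO. These shares came from 6 and 4 barcodes and their intervals overlapped, so the thinned values could not decide the direction. The junction genes and Icam2 differed little: Cdh5 by -0.04 (-0.10 to 0.01), Pecam1 by 0.06 (0.02 to 0.09), Esam by 0.00 (-0.03 to 0.04), Jam2 by -0.11 (-0.19 to -0.02) and Icam2 by 0.03 (-0.06 to 0.13), all as log2 ratios.

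Around these genes, none of 15 measured junction partners was called in the Nodal pair. Of 6 NF-kB feedback and cytokine receptor genes, 3 were called higher and 0 lower: Tnfaip3, which limits NF-kB signalling, at 0.72 (0.62 to 0.83), Relb at 0.62 and Nfkb2 at 0.60, both NF-kB subunits. The median log2 ratio of the list was 0.44, against -0.07 over all genes. Of 9 measured other adhesion molecules, Ackr1, a chemokine-binding receptor of venules, was higher at 1.20 (0.94 to 1.46), Madcam1, a ligand of leukocyte integrins, higher at 0.88, and Alcam lower at -0.81. Of 8 Weibel-Palade genes, Rab27a (0.91, 0.29 to 1.63) and Igfbp7 (0.61) were higher, and of 8 immediate early and heat shock genes that mark dissociation stress, 0 were called in either direction. Markers of other cell types in endothelial barcodes were at 287 and 238 CPM for the summed microglia list, and Ptprc, the pan-leukocyte gene, was at 4.51 and 5.49 CPM, and their part in these differences was not tested.

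Upstream sequence is shown for the genes that stood out in the Nodal pair and were found in the RefSeq promoter table (build GRCm38.p6), which held Icam1, Sele and Selp of the 10 genes. Each line gives the 250 bases before the transcription start, 5′ to 3′ on the strand of the gene, from chr9:21015690-21015939 for Icam1, chr1:164047984-164048233 for Sele and chr1:164115014-164115263 for Selp, all on the plus strand. Capitals mark matches, on either strand, to GGG and CC set apart by any 5 bases, a loose frame of NF-kB sites, or to GGAAATTCC.
Icam1: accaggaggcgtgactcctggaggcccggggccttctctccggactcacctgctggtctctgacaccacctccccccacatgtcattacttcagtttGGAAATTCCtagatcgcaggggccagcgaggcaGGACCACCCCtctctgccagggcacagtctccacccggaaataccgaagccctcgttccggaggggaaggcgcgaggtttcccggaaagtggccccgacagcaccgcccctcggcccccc
Sele: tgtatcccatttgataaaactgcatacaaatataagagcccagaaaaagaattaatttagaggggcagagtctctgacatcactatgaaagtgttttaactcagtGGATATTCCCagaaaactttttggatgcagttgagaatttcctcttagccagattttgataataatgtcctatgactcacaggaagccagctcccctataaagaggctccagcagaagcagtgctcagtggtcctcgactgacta
Selp: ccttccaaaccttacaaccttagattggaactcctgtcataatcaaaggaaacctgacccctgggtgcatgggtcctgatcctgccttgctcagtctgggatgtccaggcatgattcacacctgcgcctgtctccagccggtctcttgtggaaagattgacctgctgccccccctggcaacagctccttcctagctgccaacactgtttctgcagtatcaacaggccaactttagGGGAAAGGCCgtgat
Each gene held 1 match to the loose frame, which 45.8% of 32851 promoters of the same length also held, so its presence did not set these genes apart. In Icam1 the match was GGACCACCCC on the opposite strand, 120 to 111 bases before the start, in Sele GGATATTCCC on the opposite strand, 145 to 136 bases before it, and in Selp GGGAAAGGCC on the same strand, 15 to 6 bases before it. Only Icam1 held GGAAATTCC, 153 to 145 bases before the start, and 0.286% of promoters did. No other exact sequence was searched, so that match does not set Icam1 apart from Sele and Selp. A match is a description of the letters and not evidence of a bound factor. In the annotation used here (GENCODE vM39, build GRCm39) Icam1 lies at chr9:20926672-20940113, Sele at chr1:163867401-163886055, Selp at chr1:163942833-163977595 and Vcam1 at chr3:115903598-115923355 on the minus strand, each with a non-coding gene annotated on the opposite strand. Cdh5 and Vwf also overlap non-coding genes on the opposite strand, Jam2 the protein-coding Atp5pf and Icam2 the protein-coding Prr29, so that of the 10 genes only Pecam1 and Esam have no such partner. The alignment settings listed in the paper name no strand option. Whether reads of these partners entered the counts was not checked.

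In the Hgf lungs, 4 of the 10 genes were called lower in iPCKO and 0 higher, where 15.3% of 16058 genes were called lower and 12.2% higher. Vcam1 measured 35.0 CPM in control and 13 CPM in iPCKO, a log2 ratio of -1.43 (-1.62 to -1.24), and 51.8 and 19.6 CPM in unmixed barcodes (-1.40). Fibroblast-like barcodes had the same direction, at 166 and 69.8 CPM (-1.25, -1.62 to -0.90). So did barcodes with under 100 UMIs, at 20.9 and 7.03 CPM, and the part of free RNA was not tested. The summed level of 5 fibroblast markers in endothelial barcodes was 610 CPM in control and 174 CPM in iPCKO, and its part in the Vcam1 difference was not tested beyond the unmixed value. Within classes the ratio was -2.80 (-3.32 to -2.32) in arterial-like barcodes, at 285 and 40.9 CPM, -1.07 (-1.34 to -0.80) in venous-like and -1.19 (-1.85 to -0.55) in general capillary-like barcodes. Arterial-like barcodes of the other control lung, Bdnf control, had 116 CPM.

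Icam2 measured 258 and 120 CPM, a log2 ratio of -1.10 (-1.16 to -1.03) and -1.16 in unmixed barcodes. It was lower in each class, from -0.85 (-0.96 to -0.74) in general capillary-like to -1.57 (-1.91 to -1.25) in arterial-like barcodes. Cdh5 measured 1439 and 859 CPM (-0.74, -0.77 to -0.72), with -0.72 in aerocyte-like, -0.75 in general capillary-like and -0.54 in venous-like barcodes. Jam2 measured 99.7 and 65.5 CPM (-0.61, -0.70 to -0.51), just past the 1.5-fold limit, as Vcam1 in the Bdnf pair was just inside it. The Jam2 call was lost with all 3 of Egfl7, Tie1 and Cldn5 required (-0.52), with a minimum of 3000 UMIs (-0.49) and with median-of-ratios scaling (-0.55). Barcodes with under 100 UMIs held 38.2 and 25.8 CPM of Icam2, 296 and 237 of Cdh5 and 30.7 and 26.8 of Jam2 in control and iPCKO. Pecam1 (-0.02, -0.04 to 0.01), Esam (0.07, 0.04 to 0.10) and Vwf (-0.04, -0.08 to 0.00) were close to equal over all endothelial barcodes. Vwf differed between classes in direction, at 168 against 108 CPM in general capillary-like barcodes (0.63, 0.52 to 0.74) and 1645 against 2547 CPM in arterial-like ones (-0.63, -0.72 to -0.54). Pecam1 was higher in arterial-like barcodes, at 3992 against 2863 CPM (0.48, 0.41 to 0.55). Cldn5, 1 of the 3 genes that chose the barcodes, was itself at -0.53 in this pair.

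The difference between 2 control lungs served as a yardstick. Hgf control against Bdnf control had 3 of the 10 genes at least 1.5-fold lower and 0 higher, where 13.1% and 11.7% of 17162 genes were. Vcam1 was at -0.83 (-0.95 to -0.71), Jam2 at -0.69 (-0.76 to -0.61) and Sele at -0.86 (-1.45 to -0.30), so that the Jam2 difference in the Hgf pair was no larger than that between 2 control libraries. The same held for Sele and Vcam1 in the Bdnf pair described below, at 0.73 and -0.58. Icam2 was at 0.28, Cdh5 at 0.11 and Icam1 at -0.04. Each control enters both this comparison and its own pair, so their directions are not independent. The lox allele, the batch and the library cannot be told apart in this comparison.

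Of the genes around them in the Hgf pair, Jam3 was the 1 of 15 junction partners called, lower at -0.63. Cd34, a sialomucin of capillary endothelium, was the 1 of 8 measured other adhesion molecules called, at 535 and 278 CPM (-0.94, -0.99 to -0.90). Plat, tissue plasminogen activator, was higher at 0.79 (0.69 to 0.89), as 1 of 8 Weibel-Palade genes. Of 6 NF-kB genes, Nfkbia, the inhibitor IkBa, was higher at 0.91 (0.87 to 0.95) and Nfkb2 lower at -0.68. Among 9 measured leukocyte counter-receptors, Selplg, the P-selectin ligand, was higher at 1.11 (0.53 to 1.75), with Itga4 at -0.73 and Itgb7 at -0.70. Ptprc was at 1.49 and 2.05 CPM and the 5 immune markers summed to 12 and 18.0 CPM in control and iPCKO, and their part was not tested. Of 8 stress genes, Atf3 was lower at -0.60.

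In the Bdnf lungs, Sele and Selp were called higher in iPCKO, 2 of 10, and 0 of 10 lower, where 4.74% of 18578 genes were called higher and 5.3% lower. Selp measured 29.0 CPM in control and 45.0 CPM in iPCKO (0.63, 0.53 to 0.74), and 42.8 and 76.6 CPM in unmixed barcodes (0.84). It was higher in venous-like barcodes, at 132 and 234 CPM (0.82, 0.70 to 0.95), in general capillary-like barcodes, at 4.14 and 8.91 CPM (1.11, 0.75 to 1.48), and in aerocyte-like ones, at 2.78 and 8.14 CPM, while arterial-like barcodes had an interval that included 0 (0.16, -0.20 to 0.50). Selp was also higher outside endothelium, with 1 and 26 UMIs in smooth muscle-like barcodes (1.25 and 19.9 CPM, 3.99, 1.39 to 9.35), 1.35 and 5.67 CPM in club-like (2.07), 1.15 and 2.98 CPM in fibroblast-like (1.38), 1.81 and 4.22 CPM in AT1-like (1.22) and 1.82 and 2.94 CPM in AT2-like ones (0.69), and in barcodes with under 100 UMIs, at 13.5 and 29.3 CPM. The summed level of 5 platelet markers, which matter because platelets carry P-selectin, was 12.5 CPM in control and 3.79 CPM in iPCKO, and its part in the Selp difference was not tested.

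Sele gave 123 UMIs in 29 control barcodes and 240 UMIs in 75 iPCKO barcodes (0.73, 0.41 to 1.05), a difference no larger than that between the 2 control lungs. Venous-like barcodes had nearly the same level, 16.9 and 17.9 CPM (0.09, -0.31 to 0.49). The UMIs outside them differed, with 3 UMIs in 2 general capillary-like control barcodes against 48 UMIs in 15 iPCKO barcodes (3.75, 2.12 to 6.08). Arterial-like barcodes had 16 and 30 UMIs (6.15 and 12.9 CPM, 1.07, 0.15 to 2.04). Endothelial barcodes left without a class had 1 and 46 UMIs (0.182 and 6.21 CPM, 5.09, 2.54 to 10.4). Sele was also higher outside endothelium, with 4 and 26 UMIs in AT1-like (0.374 and 2.27 CPM), 2 and 15 in AT2-like, 1 and 17 in fibroblast-like and 0 and 10 in club-like barcodes of control and iPCKO. The iPCKO level in general capillary-like barcodes, 1.90 CPM, was below that in AT1-like barcodes, and the endothelial share of Sele UMIs was 86.0% in control and 68.0% in iPCKO, so the capillary value was not read as endothelial expression. With all 3 of Egfl7, Tie1 and Cldn5 required, 0 genes were called higher in this pair, with Selp at 0.33 and Sele at 0.56 (0.11 to 1.01), the same direction at a smaller size.

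The Icam1 ratio differed between sets of lung endothelial barcodes. Over all endothelial barcodes it measured 403 and 507 CPM (0.33, 0.30 to 0.36), in unmixed barcodes 349 and 566 CPM (0.70), past the 1.5-fold limit. In endothelial barcodes without a UMI of any of 5 AT1 markers, a choice made after seeing the data, it measured 385 and 718 CPM (0.90, 0.83 to 0.97), and in those with 3 or more AT1 markers 514 and 484 CPM. AT1-like barcodes had the reverse direction, at 1471 and 1090 CPM (-0.43, -0.47 to -0.40). The Hgf pair had a ratio of 0.07 (0.03 to 0.11) over all endothelial barcodes, 0.26 in unmixed ones, 0.58 (0.48 to 0.67) without AT1 markers and -0.42 (-0.48 to -0.37) in AT1-like barcodes. Barcodes with under 100 UMIs held 667 and 836 CPM of Icam1 in Bdnf control and iPCKO, and 644 and 886 CPM in the Hgf pair. The part of free RNA in the endothelial differences was not tested. Within Bdnf classes Icam1 was higher in venous-like (752 and 1066 CPM, 0.50), arterial-like (0.57) and general capillary-like barcodes (0.36). It was at 0.17 (0.08 to 0.25) in aerocyte-like and 0.51 (0.22 to 0.82) in lymphatic-like ones. Endothelial barcodes left without a class were at 0.06 (-0.01 to 0.14). Within Hgf classes it was at 0.22 (0.13 to 0.31) in venous-like, 0.29 (0.08 to 0.49) in arterial-like, 0.05 (-0.02 to 0.12) in general capillary-like, -0.11 (-0.20 to -0.02) in aerocyte-like and -0.82 (-1.37 to -0.28) in lymphatic-like barcodes.

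**Figure D4:**
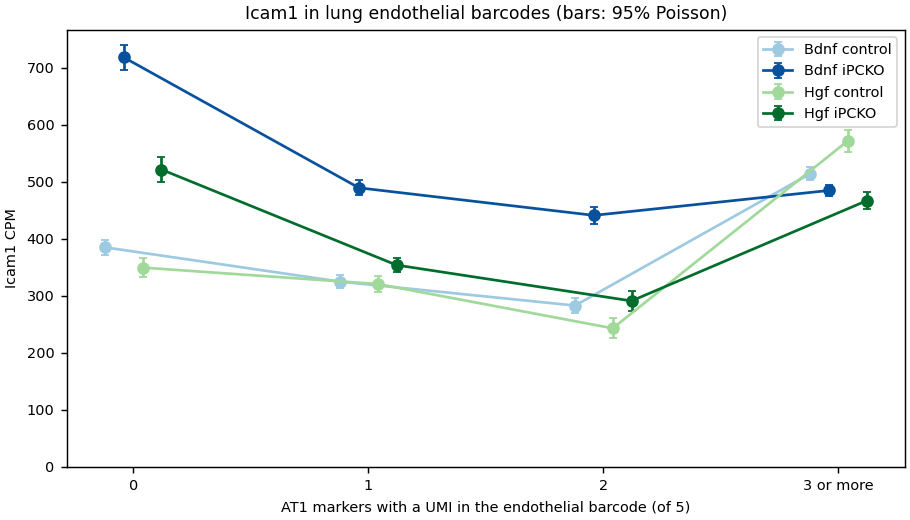
Icam1 level (CPM, linear axis from 0) in lung endothelial barcodes split by the number of 5 AT1 markers with a UMI, 1 line per library with 95% Poisson bars. Both iPCKO libraries stand above their controls where no AT1 marker was found (718 against 385 and 521 against 349 CPM), and both stand below them where 3 or more were found (484 against 514 and 466 against 571 CPM).

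The remaining genes of the Bdnf pair were lower by less than 1.5-fold. Vcam1 measured 62.0 and 41.5 CPM (-0.58, -0.66 to -0.49), Vwf 519 and 383 CPM (-0.44, -0.47 to -0.41), Cdh5 1329 and 1038 CPM (-0.36, -0.37 to -0.34), Jam2 -0.25, Icam2 -0.19, Esam -0.18 and Pecam1 -0.18 as log2 ratios. In unmixed barcodes Vwf was at -0.24 and Vcam1 at -0.36, and in general capillary-like barcodes Vwf was at 0.11 (0.01 to 0.21). None of 15 junction partners, 8 other adhesion molecules, 8 Weibel-Palade genes and 6 NF-kB genes was called, while of 7 leukocyte counter-receptors Itgal (-0.96), Itga4 (-0.76) and Itgb2 (-0.64) were lower, with 38 and 23 UMIs of Itgal and 37 and 28 of Itgb2 in control and iPCKO, and an interval for Itgb2 that included 0 (-1.40 to 0.11). In the same barcodes Ptprc was at 0.732 and 0.383 CPM and the 5 immune markers summed to 4.55 and 2.69 CPM, and their part was not tested. Of 8 dissociation stress genes Atf3 was called, higher at 0.94 (0.88 to 1.0), Fos was just inside the limit at 0.58 (0.56 to 0.59), Egr1, Dusp1, Ier2 and Junb were at 0.29 to 0.34, and Hspa1a and Hspa1b at -0.04 and -0.14. The median of the list was 0.30, against -0.04 over all genes, and its part in the Sele, Selp and Icam1 differences was not tested. The 5 AT1 markers summed to 1992 CPM in control and 2940 CPM in iPCKO endothelial barcodes, and the 5 club cell markers to 2910 and 4998 CPM.

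**Figure D5:**
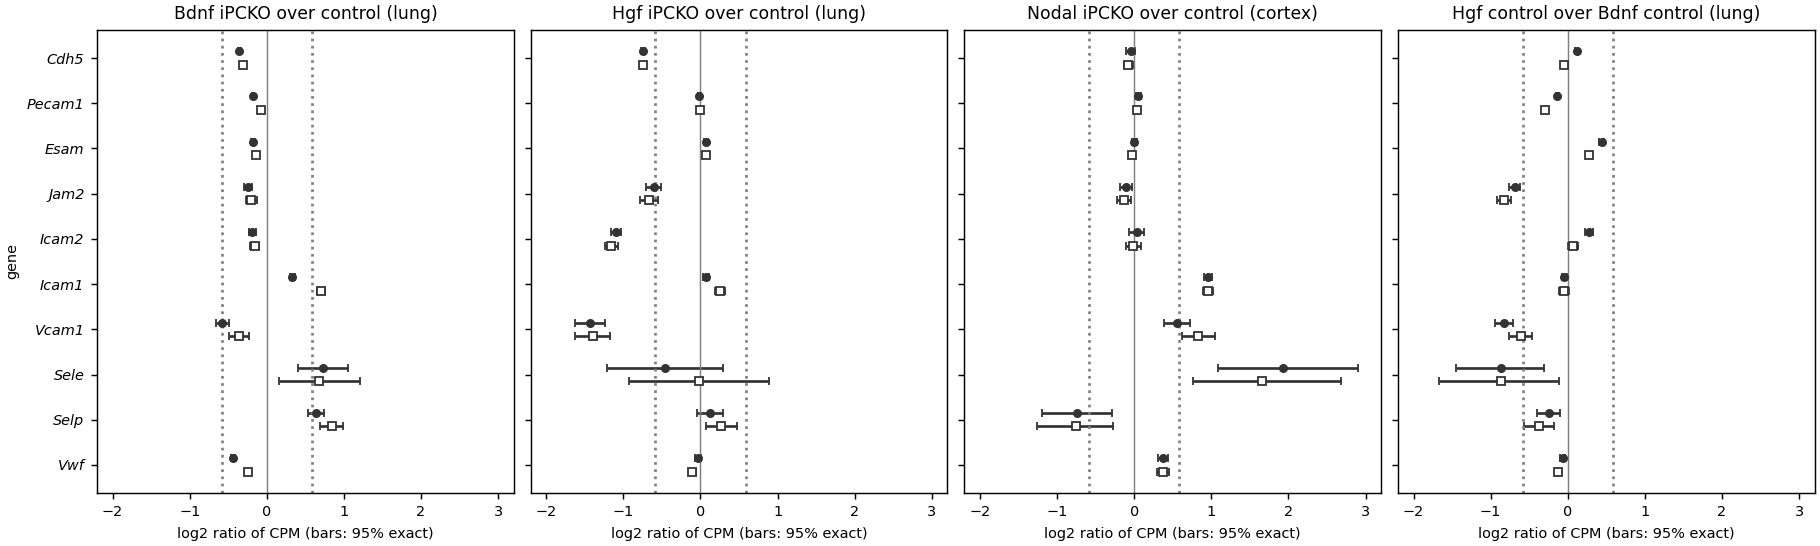
Log2 ratio of CPM for the 10 genes (rows) in endothelial barcodes of each iPCKO and control pair and of the 2 control lungs, with filled points for all and open squares for unmixed barcodes, 95% exact bars, and dotted lines at 1.5-fold. Icam1 and Sele are past the line on the right in the Nodal pair, Cdh5, Jam2, Icam2 and Vcam1 on the left in the Hgf pair, and Jam2, Vcam1 and Sele are on the left between the control lungs as well.

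Finally, control lung was set beside control cortex, with at least 2-fold as the call. Against Bdnf control lung, 5 of 10 genes were higher in lung and 0 lower, where 22.7% of 17067 genes were higher and 16.5% lower. Against Hgf control lung, 3 of 9 measured genes were higher and 0 lower, where 19.8% and 15.4% of 15394 genes were, and the median of all genes was at 0.13. Cdh5 (1.75 and 1.86), Selp (1.88 and 1.63) and Vwf (1.13 and 1.07) were past 2-fold in both comparisons, and Pecam1 (1.06 and 0.92) and Sele (1.27, 0.44 to 2.22, with 13 UMIs in cortex) in the first. With all 3 of Egfl7, Tie1 and Cldn5 required the first comparison kept Cdh5, Pecam1 and Selp, and with 3 of 5 other endothelial genes required Cdh5, Sele and Selp. Under the same changes the second comparison kept Cdh5 and Selp, and Cdh5, Selp and Vwf. The Selp ratios were taken over a cortical level close to that of other lineages, and so are not exact folds of endothelial expression. Esam was lower in lung in both, at -0.83 (-0.87 to -0.80) and -0.40 (-0.43 to -0.36), and at -0.46 and -0.18 in unmixed barcodes. Vcam1 differed in sign between the comparisons (0.58 and -0.25), though it was higher in lung in both over unmixed barcodes (1.36 and 0.75). There 7 of 10 and 5 of 9 genes were called higher, and the median of all genes was at 0.22 and 0.24. The share of all genes past 2-fold was not computed for unmixed barcodes, so these counts have no yardstick. Both comparisons share the control cortex, and organ, age, digestion and library cannot be told apart in them.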

How the data were processed

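Single cells were captured on the BD Rhapsody platform with whole transcriptome libraries. The authors aligned the reads with STAR 2.7.10a (STARsolo) to GRCm39 with a Gencode annotation, without a cell filter, and shared reads with several positions among genes by expectation maximisation, so the deposited values are estimated counts (expected counts) of UMIs per gene and barcode, 8.5 to 9.95% of them not whole. Sums were kept as deposited for levels and for ratios between libraries. Values were rounded to decide whether a barcode had a UMI, for the intervals, for the minimum of 50 UMIs and before thinning. Barcodes above the UMI minimum were given a lineage when they had UMIs of at least 3 of 5 markers, and endothelial classes needed at least 2 of 5. Levels are UMIs per 1000000 UMIs of the same barcodes (CPM). Genes were compared from 50 UMIs over a pair of libraries, and a call is a fold of 1.5 (2 between organs). No test was possible with 1 library per condition. The named genes were the 10 members, the 3 most similar genes of each and at most 3 called genes per list and direction. Some items that these rules name are not reported here. Members and lists were chosen with earlier results of these data known. No doublet caller was run. The methods were tested on simulated data. Python 3.11.15, numpy 2.4.6, scipy 1.17.1, pandas 2.3.3 and matplotlib 3.10.9 were used.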

Additional observations from a re-analysis of the deposited data

Results flagged for a closer look

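Some genes had opposite directions in iPCKO against control between experiments, which differ in gene, organ or age. With 1 library per condition the differences between experiments were not tested. Vcam1 was at a log2 ratio of -0.58 in the Bdnf lungs and -1.43 in the Hgf lungs, against 0.55 in the Nodal cortex. Selp was at 0.63 in the Bdnf lungs and -0.74 in the Nodal cortex, where its total over endothelium was near the level of other lineages. Vwf was at -0.44 in the Bdnf lungs and 0.38 in the Nodal cortex. Pecam1 was at -0.18 in the Bdnf lungs and 0.06 in the Nodal cortex. Esam was at -0.18 in the Bdnf lungs and 0.07 in the Hgf lungs, where 7 of 8 alternative ways of processing kept the sign (-0.03 to 0.16).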

How the results depend on the processing

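No paired analysis was possible because each condition had 1 library and no result came from a test, and for the same reason no replicate could be left out. With all 3 of Egfl7, Tie1 and Cldn5 required, 0 genes were called higher and 1 (Vcam1) lower in the Bdnf pair, and 3 were higher in Bdnf control lung than in cortex. With 3 of 5 other endothelial genes required instead, 3 were higher and 1 (Esam) lower in that comparison. Without mixed barcodes, 5 were higher in Hgf control lung than in cortex. With every barcode thinned to 700 UMIs, 1 gene was called higher in the Bdnf pair, where 9 genes were measured. In the Nodal pair, where 8 genes were measured, 1 was called higher and 0 lower. The share of all genes called was not computed for these changed sets of barcodes, so the counts have no yardstick there. The thinned Selp ratio of the Nodal pair was 0.75 (-1.73 to 4.09). Its thinned shares came from a separate random draw. They had the main direction, at 0.695% of control and 0.26% of iPCKO barcodes, so thinning did not decide the direction. Fewer UMIs remain by construction after thinning, and otherwise the cause was not tested. The share of all genes called, with at least 1 UMI, was 17.2% higher and 16.7% lower in the Bdnf pair, 22.8% and 24.3% in the Hgf pair and 16.9% and 23.7% in the Nodal pair, and with at least 200 UMIs it was 2.65% higher in the Bdnf pair and 1.30% higher and 2.93% lower in the Nodal pair. Over 8 alternatives Icam1 in the Nodal pair ranged from 0.92 to 1.02, and in the Hgf pair Icam2 from -1.28 to -1.05, Vcam1 from -1.54 to -1.16 and Cdh5 from -0.84 to -0.69. Depth limits Sele and, in cortex, Selp.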

Other observations

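In cortex, Vcam1 outside endothelium was at 143 and 52.7 CPM in fibroblast-like barcodes of Nodal control and iPCKO, a log2 ratio of -1.44 (-1.86 to -1.04), opposite in direction to the endothelial 0.55. In microglia-like barcodes it was at 9.44 and 34.5 CPM from 54 and 338 UMIs (1.87, 1.45 to 2.31), the same direction as in endothelium. In the lung, Icam1 in pericyte-like barcodes was at 23.8 CPM from 8 UMIs in Bdnf control and 93.2 CPM from 24 UMIs in Bdnf iPCKO (1.97, 0.77 to 3.33). In the same barcodes the endothelial genes Cdh5, at 5.95 and 50.5 CPM (3.08, 0.94 to 6.27), Pecam1, at 32.7 and 144 CPM (2.13, 1.13 to 3.25), and Vwf, with 0 and 13 UMIs, had the same direction, and their part in the Icam1 difference was not tested. In the Hgf pair Icam1 was at 57.1 and 38.7 CPM from 7 and 9 UMIs (-0.56, -2.15 to 1.10). Whether the Bdnf and Hgf values differ was not tested.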
